A study of Homo sapiens with 6 samples.

Results

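Gene expression was compared between HT1080 cells carrying an siRNA against MT1-MMP and HT1080 cells carrying an siRNA against integrin alpha3. HT1080 is a line of transformed mesenchymal cells derived from a human fibrosarcoma, and invades collagen readily. The arrays were chosen by their titles, 2 with the MT1-MMP siRNA and 2 with the integrin alpha3 siRNA, of 6 in the series. The remaining 2 were mock arrays, from cells that had received the same pGUS vector with GFP and no siRNA. GFP and the vector were therefore common to all 3 groups, and both sides of the comparison also carried an siRNA. Total RNA had been hybridised to single-channel oligonucleotide arrays. Neither the number of siRNA sequences per target, the time after transfection nor any selection of transfected cells is given in the sources used here. The labels do not tell whether the arrays of a group stand for separate cultures, so each p-value measures only the spread between arrays, which may be technical, and the number of arrays limits the precision.

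MMP14 codes for MT1-MMP, a collagenase anchored in the plasma membrane. It cleaves fibrillar collagen at the cell surface and, with TIMP2, activates the secreted gelatinase proMMP2. ITGA3 codes for integrin alpha3, which joins the beta1 subunit (ITGB1) to form a receptor for laminins, which sits in membrane complexes with tetraspanins such as CD151. Both proteins act where a tumour cell meets its matrix, one by cutting the matrix and the other by holding on to it.

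Of the probe sets that name 1 gene, the brightest of each gene was used, and 8045 genes passed a minimum mean signal of 47.5. Of the mesenchymal markers, vimentin (VIM), fibronectin (FN1), CD44, TPM1 and COL1A1 were above that minimum. Their summed signal was 32439 to 39902 with MT1-MMP siRNA and 21869 to 26167 with alpha3 siRNA. VIM, FN1 and CD44 were higher with MT1-MMP siRNA without overlap. TPM1 lay the other way, at 2111 and 1666 against 3670.4 and 2464 with alpha3 siRNA, and the COL1A1 arrays overlapped. Of 9 leukocyte markers 3 passed the minimum, with no signal above 107, and of 8 endothelial markers 2 passed. The epithelial keratins KRT8 and KRT18 were the only 2 of 8 epithelial markers to pass, and the summed signal of that list was 2310 to 2744 with MT1-MMP siRNA and 4244 to 4655 with alpha3 siRNA. Of 7 smooth muscle and pericyte markers 2 passed, with a summed signal of 902 to 962 with MT1-MMP siRNA and 1333 to 1442 with alpha3 siRNA, in which MCAM read 726 and 696 on the MT1-MMP arrays and 1100.0 and 1323 on the alpha3 arrays. Of 5 erythroid markers 1 passed, and the sums were 156 to 164 and 95.9 to 134. The part of these markers in the results was not tested. Median signals of the 6 arrays lay between 72.9 and 83.1. Alpha3 array 1 had 2 values under 1, whereas every other array had 56 to 91. The part of this difference in the results was not tested. Across genes, log2 values of the MT1-MMP arrays correlated with each other at r = 0.965, those of the alpha3 arrays at 0.952, and arrays of different siRNAs at 0.900 to 0.938. The mock arrays correlated with each other at 0.964. The highest r of all pairs, 0.970, was between alpha3 array 2 and mock array 1. With mock array 2, alpha3 array 2 correlated at 0.953. It was thus no closer to the other alpha3 array than to the mock arrays. The 18 spiked hybridisation controls, which are added to the sample and do not come from the cells, had a median signal 2.30 and 1.29 times the mock mean on MT1-MMP arrays 1 and 2, and 0.812 and 0.841 times on the alpha3 arrays. The controls thus differed between the groups compared, and their part in the results that follow was not tested.

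The targeted genes were read first. ITGA3 had signals of 148 and 347 on the alpha3 arrays, 1481 and 1634 on the MT1-MMP arrays and 1138 and 1290.3 in mock cells. Both alpha3 arrays were below the other 4. On the log2(signal + 32) scale used for every difference here, ITGA3 was higher with MT1-MMP siRNA by 2.60 (SE 0.32, 2 arrays per group, limma, adjusted p = 0.0232). Without either MT1-MMP array 1 or 2, ITGA3 kept a difference of 2.67 and 2.53 and an adjusted p of 0.110 and 0.0661. MMP14 has 4 probe sets. The brightest read 812 and 717 on the MT1-MMP arrays, 999 and 1804 on the alpha3 arrays and 1971 and 3064 in mock cells. On this probe set the MT1-MMP arrays were lowest, the alpha3 arrays lay between, and neither siRNA group overlapped the mock arrays. On another, alpha3 array 2 (770.7) lay above mock array 1 (759.5). Against alpha3 siRNA the difference of MMP14 was -0.79 (SE 0.31, adjusted p = 0.173), which did not pass the threshold of 0.05. All 4 probe sets were lower with MT1-MMP siRNA, by log2 differences of -1.31 to -0.56, and on the probe set with the smallest difference MT1-MMP array 1 (729) lay above alpha3 array 1 (691). The groups are thus set apart by their ITGA3 level past the test, and by their MMP14 level only in direction. Against mock, MMP14 differed by -1.65 with its own siRNA (adjusted p = 0.139) and by -0.86 with alpha3 siRNA (adjusted p = 0.851), and ITGA3 by -2.25 with its own siRNA (adjusted p = 0.136) and 0.35 with MT1-MMP siRNA (adjusted p = 0.651). Those comparisons share the mock arrays, and none of the 4 passed the threshold. The effect of less target and any other effect of an siRNA's sequence cannot be told apart in this design.

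**Figure D1:**
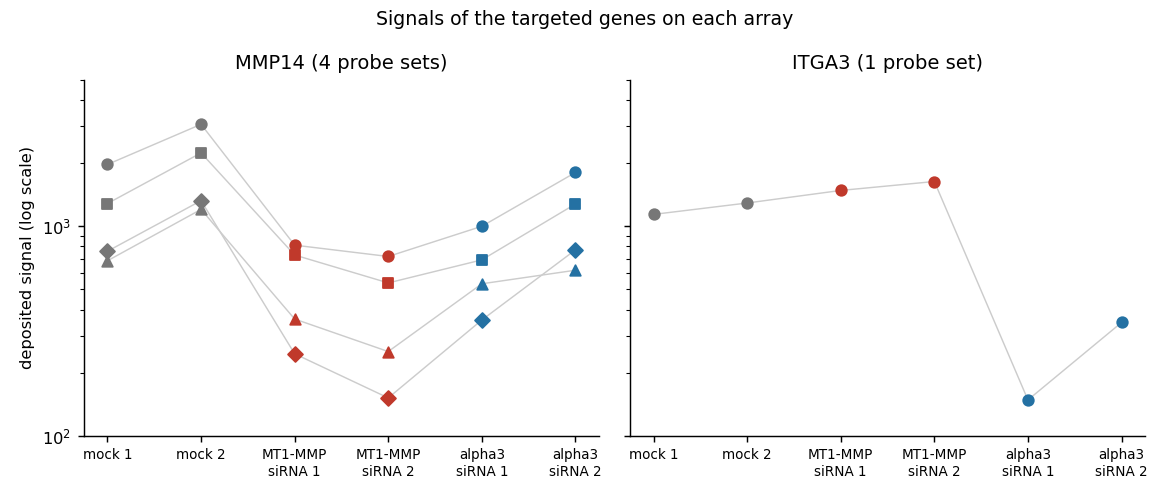
Deposited signal (log axis) of MMP14, 4 probe sets, and ITGA3, 1 probe set, on each of the 6 arrays. Each symbol shape is a probe set and grey lines join its arrays. ITGA3 read 148 and 347 on the alpha3 arrays and over 1000 on the others, whereas MMP14 on its brightest probe set read 812 and 717 on the MT1-MMP arrays and 999 and 1804 on the alpha3 arrays.

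Between the siRNAs 112 genes were called at an adjusted p under 0.05, which is 1.39% of the 8045 tested. Of these, 66 (0.820%) were higher and 46 (0.572%) lower with MT1-MMP siRNA than with alpha3 siRNA. Their absolute log2 differences ran from 0.93 to 3.28 with a median of 1.49. An unadjusted p under 0.05 was reached by 1880 genes, of which 939 were higher and 941 lower. For 4336 genes (53.9%) the 2 arrays of one siRNA both lay above the 2 of the other, with 2251 (28.0%) higher and 2085 (25.9%) lower with MT1-MMP siRNA. Of 43 called genes with several probe sets above the minimum, 41 had all of them on the same side of 0. The number of calls rested on single arrays. It was 0 without MT1-MMP array 1, where 981 genes had an unadjusted p under 0.05 and the lowest limma adjusted p was 0.0537, and 0 without MT1-MMP array 2, with 1619 such genes and a lowest adjusted p of 0.0510. It was 2 without alpha3 array 2, of which 1 was among the 112, and 58 without alpha3 array 1, of which 26 were. Without mock array 1 it was 62, and with no minimum signal it was 22.

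**Figure D2:**
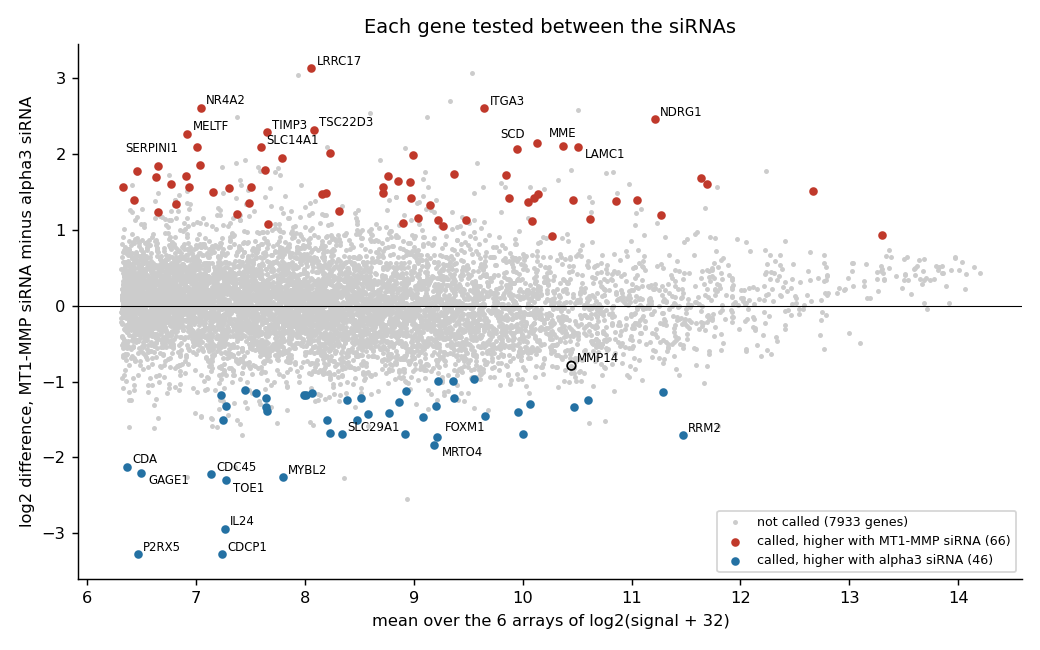
Log2 difference (MT1-MMP siRNA minus alpha3 siRNA) against the mean log2(signal + 32) over the 6 arrays for the 8045 genes tested. The 66 genes called higher with MT1-MMP siRNA are red, the 46 called lower are blue, and the largest differences and MMP14 (open circle, not called, -0.79) are labelled.

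The 12 largest called differences higher with MT1-MMP siRNA ran from 2.09 to 3.13, and of these genes ITGA3, NDRG1, SCD and LAMC1 are described with their groups. LRRC17, a secreted leucine-rich repeat protein, had signals of 838 and 857 on the MT1-MMP arrays and 45.5 and 97.7 on the alpha3 arrays, a difference of 3.13 (SE 0.51, adjusted p = 0.0329). The early response gene NR4A2, coding for a nuclear receptor without a known ligand, read 585 and 329 against 69.6 and 26.4, a difference of 2.62 (SE 0.34, adjusted p = 0.0232). The 4 arrays without MT1-MMP siRNA averaged under the minimum on NR4A2, which entered the test only through its MT1-MMP arrays. For LRRC17 mock array 1 (82.9) lay within the range of the alpha3 arrays and mock array 2 (369) between the groups, whereas for NR4A2 both sat with the alpha3 arrays at 33.2 and 29.1. TSC22D3, the glucocorticoid-induced leucine zipper protein, read 738 and 566 against 96.8 and 111, a difference of 2.32 (SE 0.29, adjusted p = 0.0232). TIMP3, the metalloproteinase inhibitor that binds to the matrix, read 478 and 527 against 106 and 54.5, a difference of 2.29 (SE 0.33, adjusted p = 0.0287), and its 4 probe sets gave 2.29 to 3.09. SERPINI1, or neuroserpin, an inhibitor of tissue plasminogen activator, read 298 and 286 against 52.7 and 36, a difference of 2.09 (SE 0.26, adjusted p = 0.0232). For each of these 3 genes both MT1-MMP arrays were above all 4 of the others. MELTF, the membrane-anchored iron-binding melanotransferrin, read 309.5 and 208 against 9.3 and 53.4, a difference of 2.27 (adjusted p = 0.0303). SLC14A1, a urea transporter, read 499 and 413 against 63.7 and 104, a difference of 2.09 (adjusted p = 0.0232). MME, the cell surface peptidase neprilysin, read 3224 and 1983 against 562 and 558, a difference of 2.11 (adjusted p = 0.0351). For MME mock array 1 (1021) lay between the groups and mock array 2 (2184) within the range of the MT1-MMP arrays, while for SLC14A1 (76.7 and 123) and SERPINI1 (39.5 and 74.7) they were close to the alpha3 arrays.

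Among the largest called differences lower with MT1-MMP siRNA, the mock arrays lay beside the MT1-MMP arrays for some genes and beside the alpha3 arrays for others. P2RX5, an ion channel opened by extracellular ATP, read 355 and 367 with alpha3 siRNA but 8.3 and 8.6 with MT1-MMP siRNA and 13.3 and 9.5 in mock cells. Its difference of -3.28 (SE 0.23) had the lowest adjusted p of all genes, 0.00317, and it also differed between alpha3 siRNA and mock by 3.18 (adjusted p = 0.00407). The 4 low signals are under the minimum of 47.5, so P2RX5 entered the test through its alpha3 arrays, and the size of its difference depends on the offset, as it does for other genes with signals this low. CDCP1, a membrane glycoprotein phosphorylated by Src-family kinases, likewise read 749.5 and 509 with alpha3 siRNA, 63.9 and 14.8 with MT1-MMP siRNA and 14.4 and 100.4 in mock cells, a difference of -3.28 (SE 0.51, adjusted p = 0.0301). CDA, the cytidine deaminase of pyrimidine salvage, read 138 and 198 against 13.9 and 12.9, with mock at 10 and 60.6 (difference -2.12, adjusted p = 0.0411). SLC29A1, the equilibrative nucleoside transporter ENT1, read 527 and 666 against 178 and 146, with mock at 262 and 242 (difference -1.70, adjusted p = 0.0232). Its 2 probe sets gave -1.70 and -1.09. In these 4 genes the mock mean lay nearer the MT1-MMP arrays, but between alpha3 siRNA and mock CDCP1, CDA and SLC29A1 did not pass the test (adjusted p = 0.238, 0.714 and 0.280). Like P2RX5, CDCP1 and CDA entered the test only through their alpha3 arrays, since the other 4 averaged under the minimum. The same held for 11 of the 112 called genes in all, 7 of them higher and 4 lower with MT1-MMP siRNA, so these genes could enter the test only with a high group. MELTF and GAGE1 are the other named genes among them. For others the mock mean lay nearer the alpha3 arrays. IL24, a cytokine of the interleukin-10 family, read 252 and 458 with alpha3 siRNA, 31.7 and 4.9 with MT1-MMP siRNA and 82.3 and 319.7 in mock cells (difference -2.94, SE 0.52, adjusted p = 0.0411). TOE1, a nuclear enzyme that trims the 3' ends of small RNAs, read 285 and 297 against 11.8 and 67.1, with mock at 179 and 111 (difference -2.29, adjusted p = 0.0329). GAGE1, a cancer-testis antigen, read 147 and 112 against 3.7 and 1.7, with mock at 93.6 and 108 (difference -2.21, adjusted p = 0.0232), and since the GAGE genes are near-identical copies the member measured is uncertain. IL24, TOE1 and GAGE1 were thus under both mock arrays on both MT1-MMP arrays.

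**Figure D3:**
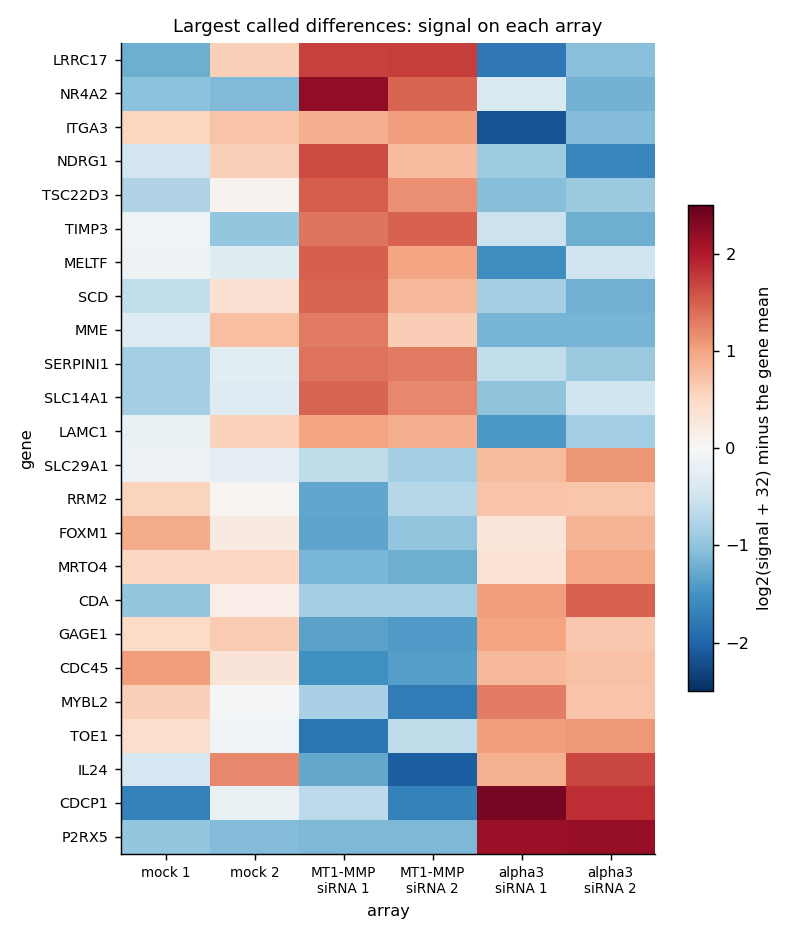
Log2(signal + 32) minus the gene's mean over the 6 arrays (colour) for the 12 largest called differences in each direction, 1 row per gene and 1 column per array. The alpha3 arrays are low and the MT1-MMP arrays high in the upper rows, from LRRC17 to LAMC1, and the reverse in the lower rows. P2RX5 read 355 and 367 on the alpha3 arrays and 13.3 or less on the other 4. In other rows, such as NR4A2, SERPINI1, CDC45 and FOXM1, the mock mean lies near the alpha3 arrays and the MT1-MMP arrays stand apart.

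The place of the mock arrays differed from gene to gene. Among the 112 called genes the mock mean on the log2 scale lay between the siRNA groups and nearer alpha3 for 80, between them and nearer MT1-MMP for 28, beyond alpha3 for 4 and beyond MT1-MMP for 0. It was on the alpha3 side for 75% of called genes, 66.7% of the higher and 87.0% of the lower ones, and for 58.7% of all 8045 genes. As the mock arrays are the same for both siRNAs, these shares only describe the order of the 3 group means.

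The DNA replication list held genes of the replicative helicase, the polymerases and the supply of nucleotides. Of its 36 measured members (of 38 listed), 6 were called lower with MT1-MMP siRNA and 0 higher, and 31 were lower without overlap between the arrays against 2 that were higher without overlap. Among all genes tested 0.572% were called lower and 25.9% were lower without overlap. The median log2 difference of the list was -0.82, beside 0.02 for all genes, and lay between -0.92 and -0.72 over the 4 pairs of single arrays. CDC45, a helicase subunit, read 16.6 and 21.7 on the MT1-MMP arrays, 213 and 201 on the alpha3 arrays and 259.6 and 145 in mock cells, a difference of -2.22 (SE 0.27, adjusted p = 0.0232). RRM2, the regulated subunit of ribonucleotide reductase, read 1122 and 1691 against 4616 and 4530.4, with mock at 4121 and 2949, a difference of -1.71 (SE 0.24, adjusted p = 0.0276). CDC6, which loads the helicase onto origins, read 125 and 124 against 493 and 445, a difference of -1.68 (SE 0.22, adjusted p = 0.0232). For CDC45 and RRM2 the mock arrays were above both MT1-MMP arrays, and on CDC45 they straddled the alpha3 arrays. CDC6 has 2 probe sets, at -1.68 and -1.11. POLA1, the catalytic subunit of polymerase alpha, read 83.6 and 78.2 against 276 and 231, a difference of -1.33 (adjusted p = 0.0287). The helicase subunits MCM7 (655 and 479.5 against 1606 and 1466, difference -1.40, adjusted p = 0.0347) and MCM2 (755 and 1025 against 2085 and 2150.4, difference -1.24, adjusted p = 0.0329) completed the called members. MCM3, MCM4, MCM5 and MCM6 had differences of -0.94, -1.14, -1.05 and -0.57, none called. The clamp PCNA differed by -0.29 with overlapping arrays, and RFC5, a subunit of the clamp loader, lay the other way at 0.91 (adjusted p = 0.0566). Against mock the list's median was -0.74 for MT1-MMP siRNA and 0.13 for alpha3 siRNA.

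Genes of this class are known to be controlled through E2F sites near their start. The 250 bases before the gene start, from RefSeq (GRCh38.p14), were searched on both strands for the E2F octamers GCGCCAAA, GCGCGAAA, GCGGCAAA and GCGGGAAA. Of 32 measured DNA replication members with a window, 11 (34.4%) held one, beside 4.57% of tested genes and 2.79% of all 27305 genes with a window. Of the genes called lower with MT1-MMP siRNA, 3 of 40 with a window (7.5%) held one, and of those called higher 1 of 52 (1.92%). The windows of the called genes POLA1 and MCM7 are shown with the octamers in capitals. They lie at chrX:24693668-24693917 (plus strand) and chr7:100101398-100101647 (minus strand), and the octamers begin 137 bases before the start of POLA1 and 187 and 9 bases before that of MCM7.
POLA1: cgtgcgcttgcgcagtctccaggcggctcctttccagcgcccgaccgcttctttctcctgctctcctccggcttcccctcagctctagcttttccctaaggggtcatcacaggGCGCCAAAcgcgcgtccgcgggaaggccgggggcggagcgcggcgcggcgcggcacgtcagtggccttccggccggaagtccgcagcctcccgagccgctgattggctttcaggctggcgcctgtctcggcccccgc
MCM7: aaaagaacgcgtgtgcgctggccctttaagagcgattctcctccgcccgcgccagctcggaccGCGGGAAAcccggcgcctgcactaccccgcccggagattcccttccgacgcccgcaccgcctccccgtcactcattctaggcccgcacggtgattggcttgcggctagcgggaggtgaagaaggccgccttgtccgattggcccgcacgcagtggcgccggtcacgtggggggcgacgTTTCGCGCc
A match of letters describes the window and does not show a bound site.

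Mitosis genes followed the same direction with a smaller median. Of 44 members 2 were called lower and 0 higher with MT1-MMP siRNA, beside 0.572% and 0.820% of all genes. Without overlap 36 were lower and 1 higher, beside 25.9% and 28.0% of all genes. The list's median was -0.62 (-0.88 to -0.34 over array pairs). Both called members are transcription factors that drive other cell cycle genes. MYBL2, or B-Myb, read 95.4 and 34.5 on the MT1-MMP arrays, 506 and 330.3 on the alpha3 arrays and 302 and 186 in mock cells, a difference of -2.26 (SE 0.36, adjusted p = 0.0312). FOXM1 read 206 and 269.7 against 700.1 and 1041, with mock at 1096 and 662, a difference of -1.73 (SE 0.29, adjusted p = 0.0355). For FOXM1 the mock and alpha3 arrays shared 1 range and both MT1-MMP arrays lay under it. Among the members not called, CDC20, the activator of the anaphase-promoting complex, differed by -1.52 (adjusted p = 0.0622), the mitotic cyclin CCNB1 by -0.76 (adjusted p = 0.131), the checkpoint kinase BUB1B by -0.80 (adjusted p = 0.0733), and the kinase CDK1, whose arrays overlapped, by -0.18. The checkpoint kinase TTK lay the other way at 0.30. Against mock the median was -0.55 for MT1-MMP siRNA and 0.01 for alpha3 siRNA. In bulk RNA, fewer dividing cells and less RNA of these genes per cell cannot be told apart.

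Mitotic genes are known for the cell cycle homology region, or CHR, with the letters TTTGAA. Searched on both strands in the same windows, it was found in 18 of 38 mitosis genes (47.4%), beside 8.37% of tested genes and 13.6% of all genes with a window. The CHR was in 3 of 40 genes called lower with MT1-MMP siRNA (7.5%) and 5 of 52 called higher (9.62%). FOXM1 and B-Myb belong to the factors known to act at this element, so the windows of CDC20 (chr1:43358731-43358980, plus strand, 178 and 65 bases before the start) and BUB1B (chr15:40160819-40161068, plus strand, 23 bases before the start) are shown with it in capitals.
CDC20: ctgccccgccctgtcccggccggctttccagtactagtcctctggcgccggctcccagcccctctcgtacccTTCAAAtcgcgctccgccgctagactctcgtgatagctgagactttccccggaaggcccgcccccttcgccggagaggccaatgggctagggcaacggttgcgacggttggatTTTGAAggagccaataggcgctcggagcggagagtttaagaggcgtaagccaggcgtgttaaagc
BUB1B: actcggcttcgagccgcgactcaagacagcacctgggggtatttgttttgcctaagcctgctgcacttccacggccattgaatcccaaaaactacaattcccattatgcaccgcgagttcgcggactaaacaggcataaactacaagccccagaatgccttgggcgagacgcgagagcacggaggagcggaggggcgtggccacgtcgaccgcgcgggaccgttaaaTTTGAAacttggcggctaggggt
Neither of these members passed the threshold in the comparison.

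The regulators of entry into the cycle did not share 1 direction. Of 18 measured genes, 5 (27.8%) were higher and 7 (38.9%) lower without overlap, beside 28.0% and 25.9% of all genes. The list's median of -0.21 turned to 0.06 without alpha3 array 2. It was -0.36 without alpha3 array 1 and -0.34 without MT1-MMP array 2. RBL2, the pocket protein p130 of resting cells, was the only called member and was higher with MT1-MMP siRNA. It read 242 and 227 against 85.1 and 81.1 (mock 112 and 123, difference 1.21, SE 0.20, adjusted p = 0.0329). Its 2 probe sets gave 0.84 and 1.21. The CDK inhibitor CDKN1B, or p27, had a difference of 0.96 (adjusted p = 0.0777) and CDKN1A, or p21, of 0.66 (adjusted p = 0.114), while the cyclins CCND2, CCNE2 and CCND1 had differences of -0.92, -0.91 and -0.32, none called.

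Genes that respond to low oxygen had the largest median of the 32 lists with 1 probe set per gene. With every probe set counted, their median was 1.08 and that of the metalloproteinase inhibitors was larger at 2.29, from 0.52 with 1 probe set per gene. When oxygen falls, hypoxia-inducible factors escape degradation and raise genes for glucose use, vessel growth and collagen processing. Of 18 measured hypoxia genes outside glycolysis (of 24 listed), 4 were called higher and 0 lower with MT1-MMP siRNA. The shares among all genes were 0.820% and 0.572%. Without overlap 16 were higher and 1 lower, beside 28.0% and 25.9% of all genes. The list's median was 1.43 with 0.64 to 1.98 over array pairs. It was 0.84 without alpha3 array 2. NDRG1, a stress-responsive gene, read 7310.2 and 4032 on the MT1-MMP arrays, 1257 and 733 on the alpha3 arrays and 1670.2 and 3553 in mock cells, a difference of 2.46 (SE 0.41, adjusted p = 0.0351). BNIP3L, a mitophagy receptor, read 2304 and 1838 against 606 and 354, with mock at 613 and 1286, a difference of 2.07 (SE 0.36, adjusted p = 0.0396). STC1, the secreted glycoprotein stanniocalcin, read 5598 and 4458 against 1531 and 1722, with mock at 3390.4 and 5561, a difference of 1.60 (SE 0.24, adjusted p = 0.0298). The 2 mock arrays were far apart on NDRG1 and BNIP3L, and for STC1 both stood above the alpha3 arrays. The values given are the largest of 3 probe sets for STC1 (0.74 to 1.60) and of 2 for BNIP3L (1.49 and 2.07). P4HA1, a prolyl hydroxylase subunit that matures collagen, read 2143 and 1912 against 949 and 527, with mock at 838 and 973, a difference of 1.47 (SE 0.27, adjusted p = 0.0425). The vascular growth factor VEGFA read 4167 and 2465 against 1400.4 and 602 and 1285 and 2887 in mock cells, and its difference of 1.76 (SE 0.47) did not pass (adjusted p = 0.0848), with 4 probe sets between 1.45 and 1.76. BNIP3 (3243 and 2979 against 1761 and 456, difference 1.75), the histone demethylase KDM3A (1.07) and the collagen cross-linking oxidase LOX (1.62) were not called either. HMOX1, a heme oxygenase that also answers to oxidants, lay the other way at -0.76 (adjusted p = 0.160). Against mock the list's median was 0.81 for MT1-MMP siRNA and -0.49 for alpha3 siRNA.

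The core of the hypoxia response element, ACGTG or GCGTG, was searched in the same way. ACGTG also lies within the E-box CACGTG. The core is short and frequent, occurring in 43.1% of all genes with a window and in 57.5% of tested genes, and 11 of 13 hypoxia genes with a window (84.6%) held it. It was also held by 68.8% of DNA replication, 72.7% of ribosome biogenesis and 77.8% of lipid synthesis genes, and by 53.8% of the genes called higher and 70% of those called lower with MT1-MMP siRNA. The windows of the called gene P4HA1 (chr10:73096867-73097116, minus strand, 86 bases before the start) and of KDM3A (chr2:86441121-86441370, plus strand, 26 bases before the start) each held 1 core, shown in capitals.
P4HA1: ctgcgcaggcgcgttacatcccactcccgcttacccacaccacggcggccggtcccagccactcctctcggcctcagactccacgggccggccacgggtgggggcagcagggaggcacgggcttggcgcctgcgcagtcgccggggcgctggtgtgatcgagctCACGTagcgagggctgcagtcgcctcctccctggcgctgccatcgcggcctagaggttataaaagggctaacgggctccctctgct
KDM3A: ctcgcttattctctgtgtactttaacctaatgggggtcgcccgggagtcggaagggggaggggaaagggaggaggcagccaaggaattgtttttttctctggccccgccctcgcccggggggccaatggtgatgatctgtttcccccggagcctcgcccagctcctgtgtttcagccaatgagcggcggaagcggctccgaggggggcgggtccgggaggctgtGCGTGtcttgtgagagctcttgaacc
No signal in these data measures binding at either window.

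Glycolysis genes were mostly higher with MT1-MMP siRNA, with a smaller median. Of 21 measured, 1 was called higher, beside 0.820% of all genes. Without overlap 18 were higher and 2 lower, beside 28.0% and 25.9% of all genes. The list's median was 0.44, or 0.27 after quantile normalization. SLC2A3, the glucose transporter GLUT3, was the called member, at 838 and 663 on the MT1-MMP arrays, 261 and 160.4 on the alpha3 arrays and 363 and 463 in mock cells (difference 1.71, SE 0.26, adjusted p = 0.0289). ALDOC, an aldolase, had the largest difference of the list, 3.07, but its arrays spread too widely to pass, with 4315 and 2221 against 920.5 and 114 and mock at 82.9 and 1048 (adjusted p = 0.141). The kinases PGK1 and HK2 and the dehydrogenase LDHA had differences of 0.85, 0.94 and 0.65 (adjusted p = 0.0543, 0.0910 and 0.0622).

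**Figure D4:**
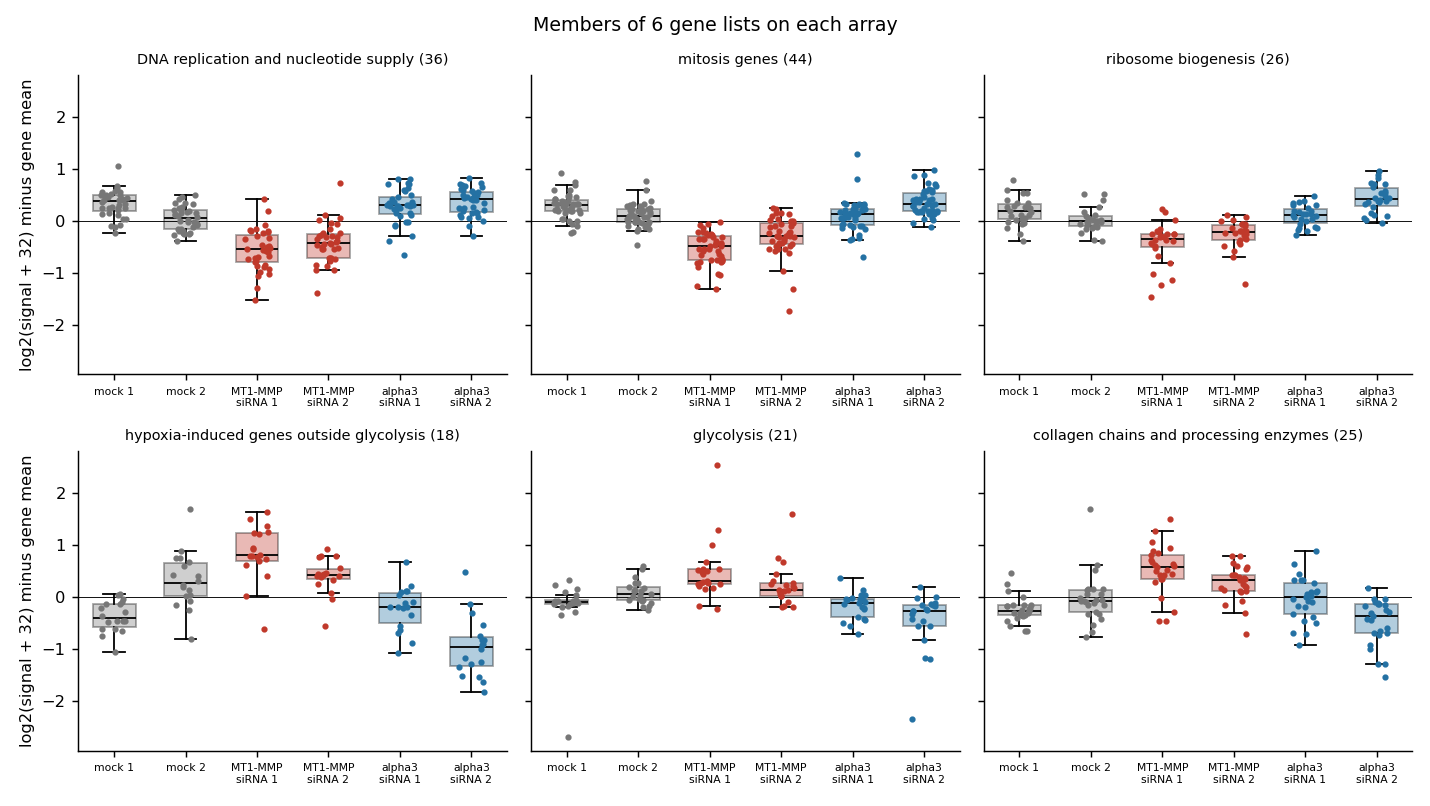
Log2(signal + 32) minus the gene's mean over the 6 arrays, for the members of 6 gene lists, by array. Each point is a gene, and boxes span the quartiles with the median line and whiskers to 1.5 times the box height. DNA replication, mitosis and ribosome biogenesis genes lie lowest on both MT1-MMP arrays, and hypoxia genes lie lowest on alpha3 array 2.

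Collagen and laminin genes were taken next. Of 25 collagen chains and processing enzymes 1, P4HA1, was called, and the median was 0.66. Without overlap 15 were higher and 0 lower, beside 28.0% and 25.9% of all genes. The larger differences in the list belonged to the enzymes LOX (1.62), P4HA2 (1.56) and PLOD2 (1.49), which also belong to the hypoxia response, while COL1A1, a chain of type I collagen, differed by -0.33 with overlapping arrays. Among 9 laminin chains and nidogens, which form the basement membrane and include the ligands of integrin alpha3 beta1, 2 were called higher. The share called higher among all genes was 0.820%. LAMC1, the gamma1 chain shared by most laminins, read 2833 and 2698 on the MT1-MMP arrays, 505 and 771 on the alpha3 arrays and 1271 and 2126 in mock cells, a difference of 2.09 (SE 0.28, adjusted p = 0.0247). NID2, a nidogen that links laminin to collagen IV, read 235 and 201 against 59.2 and 53.5, with mock at 116 and 82.6, a difference of 1.5 (SE 0.23, adjusted p = 0.0289). Both alpha3 arrays were the lowest of the 6 for LAMC1 and for NID2. LAMC1 has 2 probe sets, at 1.21 and 2.09. LAMB1 and LAMA5 had differences of 0.78 and -0.73, neither called, and the list's median of 0.48 was 0.89 without alpha3 array 1 and 0.99 without MT1-MMP array 2.

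Among 11 measured integrin subunits ITGA3 itself was the only one called. Its partner ITGB1 read 7820.4 and 5868 on the MT1-MMP arrays, 4057 and 4429 on the alpha3 arrays and 3894 and 4296 in mock cells (difference 0.67, SE 0.18, adjusted p = 0.0837). The collagen receptor subunits ITGA2 and ITGA10 had differences of 1.57 (adjusted p = 0.221) and 1.92 (adjusted p = 0.0552), and ITGA5, the subunit of the fibronectin receptor, of 0.82 (adjusted p = 0.0816). ITGA6 and ITGAV differed by 0.08 and 0.07 with overlapping arrays. The hyaluronan receptor CD44 read 7318 and 6665 against 4739 and 4508 (difference 0.59, adjusted p = 0.0809), but its 7 probe sets ran from -0.07 to 0.94. Tetraspanins and other partners of the integrin had no called member of 11 by limma and 3 higher at an unadjusted p under 0.05, with a median of 0.23 that was 0.11 without MT1-MMP array 1 and 0.13 without alpha3 array 2, and the named members were CAV1 at 0.57 (adjusted p = 0.0894) and SLC3A2 at -0.53 (adjusted p = 0.366), which was -0.07 without MT1-MMP array 1 and -1.0 without MT1-MMP array 2. CD151 differed by -0.06. Focal adhesion and actin genes were spread about 0, with a median of 0.00 and no called member of 28 by limma. At an unadjusted p under 0.05, 2 were higher and 1 lower, beside 939 and 941 of all 8045 genes. ACTN4, an actinin, had 0.53 (adjusted p = 0.125) and TPM4, a tropomyosin, -0.59 (adjusted p = 0.201).

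None of the 10 measured metalloproteinases passed the limma test, though 2 were higher and 2 lower at an unadjusted p under 0.05, and the list's median of 0.22 changed sign with no filter (-0.03), with a filter at the 60th percentile (-0.12), with every probe set counted (-0.09) and without MT1-MMP array 1 (-0.01), and was 0.06 without alpha3 array 2. MMP2, the gelatinase activated by MT1-MMP, read 1271 and 1066 on the MT1-MMP arrays, 730.0 and 384 on the alpha3 arrays and 429.5 and 672 in mock cells, a difference of 1.09 (SE 0.32, adjusted p = 0.102). MMP9, the other gelatinase, read 191 and 158 against 292 and 124 with mock at 127 and 832 (difference -0.12, SE 0.68, adjusted p = 0.934), and its sign turned without alpha3 array 1. The stromelysin MMP3 differed by -1.11 (adjusted p = 0.0725). Thus MMP2 signals were higher on both MT1-MMP arrays than on the other 4, and MMP9 signals overlapped. The inhibitors all lay on 1 side, with TIMP3 called, TIMP1 at 3387 and 2530.1 against 1982 and 2067 (difference 0.53, adjusted p = 0.170), TIMP2 at 387 and 341 against 274 and 243 (difference 0.45, adjusted p = 0.256) and the membrane-anchored RECK at 0.50. The ADAM and ADAMTS proteases had no called member of 12 by limma and 3 higher at an unadjusted p under 0.05. For both protease lists these counts stand beside 939 higher and 941 lower of all 8045 genes. ADAM22, a catalytically inactive family member, differed by 0.77 (adjusted p = 0.0733) and ADAM15 by -0.19 (adjusted p = 0.702), and ADAM15 changed sign without MT1-MMP array 2. In the plasminogen system, 2 of 8 members were called higher, both protease inhibitors, beside 0.820% of all genes. SERPINE2, protease nexin 1, read 5107 and 3337 on the MT1-MMP arrays, 1573 and 1558 on the alpha3 arrays and 965 and 900.3 in mock cells (difference 1.38, SE 0.22, adjusted p = 0.0312), and SERPINI1 was the other. PLAT, tissue plasminogen activator, which both inhibit, read 4853 and 2230.1 against 866 and 997 (difference 1.79, adjusted p = 0.130). The list's median of 0.79 was 0.23 without MT1-MMP array 1 and 0.51 with an offset of 100. It was 0.35 with no filter, 0.34 with a filter at the 60th percentile and 0.35 with every probe set counted.

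Factors that promote vessel growth had no called member of 22 by limma. At an unadjusted p under 0.05, 8 were higher and 2 lower, beside 939 and 941 of all 8045 genes. Without overlap 13 were higher and 2 lower, beside 28.0% and 25.9% of all genes. The list's median was 0.45 (0.24 without alpha3 array 1). Beside VEGFA, its coreceptor NRP1 read 4351 and 2880.3 against 2024 and 1329 (difference 1.09, adjusted p = 0.0674), and the matricellular protein CCN1 read 1239 and 1536 against 1803 and 2591 (difference -0.64, adjusted p = 0.153). The chemokine CXCL8 read 505 and 269.9 on the MT1-MMP arrays and 101 and 181 on the alpha3 arrays, and was above both in mock cells at 795 and 1647 (difference 1.26, adjusted p = 0.119). Factors that restrain vessel growth had TIMP3 as the only called member of 10. Their median was 0.56 (0.87 without MT1-MMP array 2 and 0.25 with no filter). THBS1, thrombospondin, read 590.2 and 762 against 1251 and 589, with both siRNA groups above mock (204 and 242). Its difference of -0.34 (adjusted p = 0.566) changed sign without alpha3 array 1. The sign also differed between its 5 probe sets, which ran from -0.34 to 0.17. Promoting and restraining factors thus both had a median above 0. NF-kappaB genes and cytokines had a median of -0.06, which was 0.06 without MT1-MMP array 2 and 0.04 with no filter or every probe set, and IL24 was the only call of 19. IL11 differed by -1.44 (adjusted p = 0.0534), PTGS2 by 1.13 (adjusted p = 0.125) and IL6 by -0.12.

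BMP and TGF-beta signalling genes split. Their median was 0.06, with -0.01 after quantile or cyclic loess normalization and -0.02 without MT1-MMP array 1, and 1 member was called in each direction of 25. TGFBR2, the receptor that binds TGF-beta, read 3846 and 2993 on the MT1-MMP arrays, 1468 and 1452 on the alpha3 arrays and 2386 and 3582 in mock cells (difference 1.20, SE 0.23, adjusted p = 0.0474). ID3, an inhibitor of differentiation factors and a BMP target, read 372 and 262 against 818 and 834, with mock at 815 and 540.0 (difference -1.32, SE 0.25, adjusted p = 0.0481). The alpha3 arrays were lowest for TGFBR2, whereas the MT1-MMP arrays were lowest for ID3. ID1 and ID2 had differences of -0.56 and -0.55, not called, and the signal transducer SMAD1 of 0.12 (adjusted p = 0.768) with overlapping arrays. Genes of the mesenchymal and epithelial state had no called member of 13 by limma. At an unadjusted p under 0.05, 5 were higher and 2 lower, beside 939 and 941 of all 8045 genes. The list's median was 0.48 (0.21 without MT1-MMP array 1 and 0.25 without alpha3 array 2). FN1 read 12635 and 9354 against 5237 and 1882 (difference 1.78, adjusted p = 0.111), smooth muscle actin ACTA2 differed by 1.24 (adjusted p = 0.0543), and the keratins lay the other way, with KRT8 at -1.15 (adjusted p = 0.0659) and KRT18 at -0.70 (adjusted p = 0.0638).

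Several lists for protein production and upkeep lay on the lower side with MT1-MMP siRNA, with few calls. Of 26 ribosome biogenesis genes 1 was called lower and 20 were lower without overlap against 1 higher. Among all genes 0.572% were called lower, and 25.9% were lower and 28.0% higher without overlap. The list's median was -0.56 (-0.80 to -0.41 over array pairs). The called member MRTO4, an assembly factor of the large ribosomal subunit, read 234 and 218 on the MT1-MMP arrays, 718 and 1103 on the alpha3 arrays and 807 and 799 in mock cells (difference -1.84, SE 0.23, adjusted p = 0.0232). ODC1, the first enzyme of polyamine synthesis, read 1253 and 2142 against 3862 and 6485 (difference -1.59, adjusted p = 0.0533), and RRS1, another assembly factor, differed by -1.26 (adjusted p = 0.0675). MYC, which drives many of these genes, differed by -0.27 with overlapping arrays. Heat shock proteins and chaperones had 16 of 21 members lower without overlap and a median of -0.45, and proteasome subunits 18 of 28 and a median of -0.37. Neither list had a call by limma. At an unadjusted p under 0.05, 12 chaperones were lower and 0 higher, and 12 proteasome subunits lower and 1 higher. All 8045 genes gave 941 lower and 939 higher at that p. STIP1, a cochaperone that joins HSP70 to HSP90, differed by -0.90 (adjusted p = 0.0534), HSP90AA1 by 0.11 (adjusted p = 0.742, with -0.11 without alpha3 array 1 and -0.23 after quantile normalization), PSMD2, a subunit of the proteasome cap, by -0.80 (adjusted p = 0.0568) and the activator PSME1 by 0.68 (adjusted p = 0.109). The ribosomal proteins themselves had 30 of 33 members higher without overlap and none lower, but their median of 0.43 shrank to 0.04 after quantile and 0.17 after cyclic loess normalization, and to 0.26 without MT1-MMP array 1. None was called by limma, and 21 were higher at an unadjusted p under 0.05. RPL37, with the largest difference, read 9707 and 8654 against 5505 and 5969 (0.67, adjusted p = 0.0545), and many ribosomal proteins have near-identical pseudogenes. Oxidative phosphorylation genes had a median of 0.14 and no call of 33 by limma, 5 being higher at an unadjusted p under 0.05, with COX7C at 0.55 (adjusted p = 0.0848) and CYC1 at -0.36 (adjusted p = 0.255).

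Lipid synthesis genes had 2 called members of 20, both higher with MT1-MMP siRNA, and a median of 0.43. The share called higher among all genes was 0.820%. Without overlap 13 were higher and 1 lower, beside 28.0% and 25.9% of all genes. SCD, the desaturase that makes monounsaturated fatty acids, read 3035 and 1924 on the MT1-MMP arrays, 602 and 452 on the alpha3 arrays and 702 and 1429 in mock cells (difference 2.14, SE 0.35, adjusted p = 0.0329), and its 4 probe sets ran from 1.22 to 2.14. MSMO1, a demethylating oxidase of cholesterol synthesis, read 2162 and 1842 against 809 and 652, with mock at 656 and 1077 (difference 1.42, SE 0.26, adjusted p = 0.0415). INSIG1 and SREBF2, which control the pathway, had differences of 1.49 (adjusted p = 0.0543) and 0.91 (adjusted p = 0.0566). Fatty acid synthase, FASN, differed by 0.34.

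The interferon list held 16 of 30 members higher without overlap and 2 lower, beside 28.0% and 25.9% of all genes. The list's median was 0.56, and 0.22 without alpha3 array 2. HLA-B, an antigen-presenting molecule, was its only call, at 1624 and 1161 on the MT1-MMP arrays, 484 and 315 on the alpha3 arrays and 335 and 599 in mock cells (difference 1.73, SE 0.32, adjusted p = 0.0425). Class I genes are alike in sequence, so the signal may be shared with HLA-C, which differed by 1.89 (adjusted p = 0.0901). The classic antiviral genes ISG15 and MX1 had differences of -0.46 and -0.39 with overlapping arrays, IFIT5 of -0.51 and IFITM1 of 2.10 (adjusted p = 0.106), so members of the list lay on both sides. Of the early response genes NR4A2 was the only call of 21, with NR4A1 at 1.34 (adjusted p = 0.0900), DUSP1, a phosphatase of MAP kinases, at 1.24 (adjusted p = 0.0656), and JUN and EGR1 at -0.11 and 0.21 with overlapping arrays. The list's median was 0.10, with 0.37 without alpha3 array 2 and 0.02 without alpha3 array 1 or MT1-MMP array 2. In the antioxidant and glucocorticoid list TSC22D3 was the only call of 17, and the median was 0.02, or 0.25 with every probe set counted and -0.05 when only probe sets above the 60th percentile entered. The glucocorticoid-responsive KLF9 lay with it at 1.77 (adjusted p = 0.0592), and GCLM, a subunit of the enzyme that starts glutathione synthesis, lay opposite at -1.37 (adjusted p = 0.0534). TXNIP, the thioredoxin-binding protein, read 2323 and 2027 against 705 and 122 (difference 2.71, adjusted p = 0.0729).

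The remaining lists had no call by limma but P2RX5. Their counts at an unadjusted p under 0.05 were 4 higher of 28 for the stress genes. They were 4 higher and 2 lower of 18 for p53 and apoptosis. RNA interference had 1 lower and the P2X list 3 lower of 7. All 8045 genes gave 939 higher and 941 lower at that p. Unfolded protein and amino acid stress genes had a median of 0.21 (0.39 without MT1-MMP array 1, 0.08 without MT1-MMP array 2 and 0.10 without alpha3 array 1), with the disulfide isomerase PDIA3 at 0.85 (adjusted p = 0.0538) and the serine synthesis enzyme PSAT1 at -0.79 (adjusted p = 0.291), which was -0.08 without MT1-MMP array 1 and -1.51 without MT1-MMP array 2. The p53 and apoptosis genes had a median of 0.13, which was -0.07 without alpha3 array 1 and -0.02 without MT1-MMP array 2. The survival factor MCL1 differed by 0.88 (adjusted p = 0.0778) and the stress gene GADD45A by -0.60 (adjusted p = 0.0969). The 5 probe sets of MCL1 ran from 0.22 to 0.88. Genes of the RNA interference machinery, through which both siRNAs act, had a median of -0.07. It was 0.03 without alpha3 array 2 and -0.20 without alpha3 array 1. Of 10 genes, 1 (10%) was higher and 3 (30%) lower without overlap, beside 28.0% and 25.9% of all genes. DICER1 and AGO1 differed by -0.04 and -0.11, and PRKRA, a partner of Dicer, by 0.29 (adjusted p = 0.421). The export GTPase RAN differed by -0.66 (adjusted p = 0.110), and its 2 probe sets gave -0.66 and -0.25. In the list of termination factors and P2X receptors, which had a median of -0.52 (-0.19 without alpha3 array 1 and -0.32 without alpha3 array 2), the other P2X receptors P2RX1, P2RX4 and P2RX6 differed by -0.52, 0.24 and -0.02, none called.

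**Figure D5:**
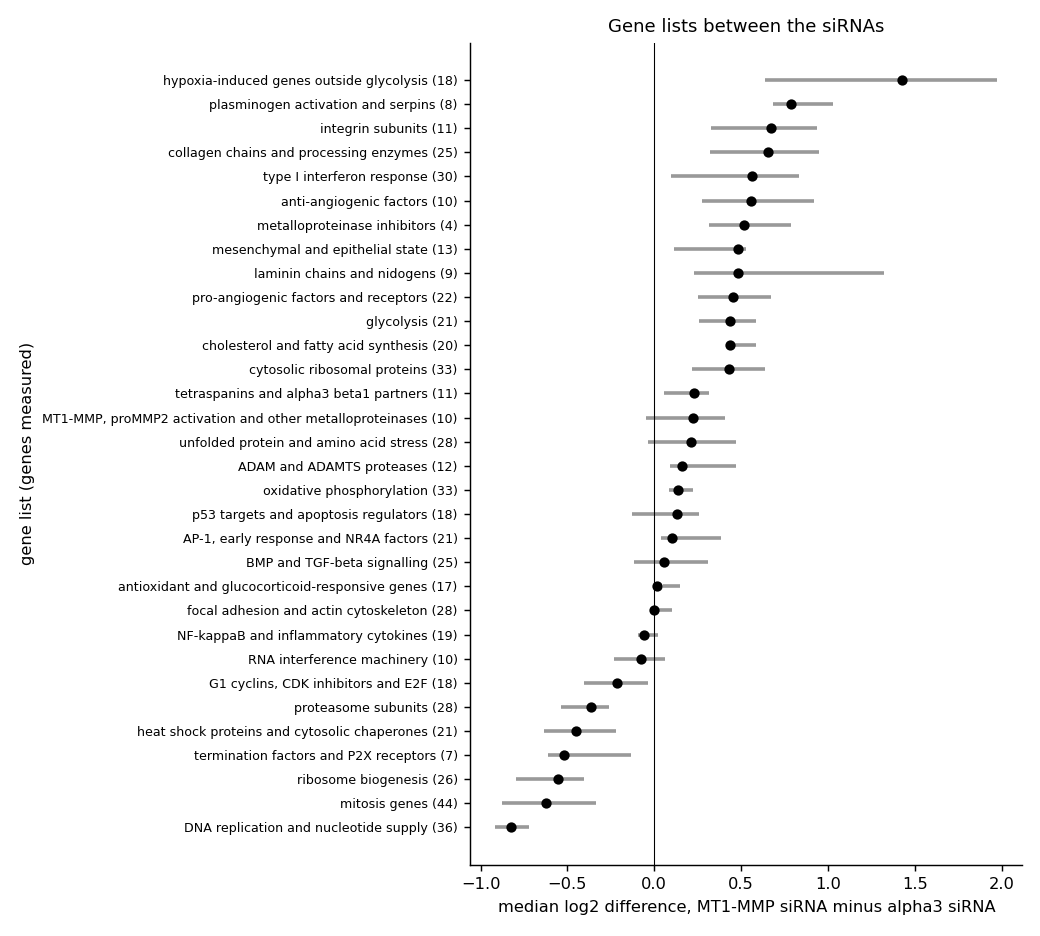
Median log2 difference (MT1-MMP siRNA minus alpha3 siRNA) of each of the 32 gene lists (points), with the range of that median over the 4 pairs of single arrays (bars). The median over all genes was 0.02. With 1 probe set per gene, hypoxia genes stand highest at 1.43 and DNA replication genes lowest at -0.82.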

How the data were processed

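The authors' deposited values were 1 intensity per probe set for 22283 probe sets on 6 arrays, on a linear scale. The middle 96% of probe sets averaged 250.1 on each array, so the deposited intensities had been scaled to a common level. What software made them, and from which genome build, is not given in the sources used here. Names came from the platform annotation, in which 19065 had 1 gene symbol, 1043 several and 2107 none. Of the former, 19053 matched a RefSeq gene record.

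Values were raised to at least 1 and turned into log2(value + 32), which damps differences of dim genes. Probe sets above the 40th percentile of mean log2 value (6.31) were kept, the brightest per gene. limma 3.58.1 in R 4.3.3 fitted 3 group means to the 6 arrays (lmFit, eBayes with an intensity trend, 3 residual and 5.35 prior degrees of freedom), with Benjamini-Hochberg adjustment over 8045 genes. The test was tested on 20 simulated sets of arrays with 200 changed genes each. It recovered 4.15% of true log2 differences of 1, 65.6% of those of 2 and 95.2% of those of 3. Of its calls there, 5.64% were false. A gene that was not called may therefore still differ. No 2 arrays shared values on more than 92 probe sets, so none was a copy of another. Each was counted as 1 replicate, but this does not show that the cultures were separate.

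The comparison, the 32 gene lists and the 6 marker lists were chosen with earlier results of these data known. Lists are described by counts and medians, with no set test. Calls in any list stand beside 0.820% of all genes called higher and 0.572% called lower. Counts at an unadjusted p under 0.05 stand beside 939 higher and 941 lower of 8045 genes. Named genes were the 12 largest called differences each way, 13 genes always named, and up to 4 members per list, which were the called ones or else the lowest p in each direction. Other list members are named as examples chosen after their values were seen. Promoter windows were the first listed per gene. Figures were drawn with matplotlib 3.10.9. Alternatives were other normalizations, offsets, filters, probe set rules and fits, a replicate block, and leaving out each array.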

Additional observations from a re-analysis of the deposited data

Results flagged for a closer look

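The spiked hybridisation controls, which no comparison of genes used, were brighter on both MT1-MMP siRNA arrays than in the mock arrays. Their median signal over 18 controls was 2.30 times the mock mean on MT1-MMP array 1 and 1.29 times on MT1-MMP array 2, while the mock arrays themselves read 0.927 and 1.07 times and the alpha3 arrays 0.812 and 0.841 times. The values are given without a test.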

How the results depend on the processing

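The count of 112 called genes was 69 with an offset of 1, 22 with no filter, 178 with a filter at the 60th percentile and 72 for eBayes without a trend. It stayed within 1.5 times of 112 after quantile (115), 75th percentile (110) and cyclic loess normalization (102, added after the data were seen), with an offset of 100 (144), each gene's probe sets averaged (93), all probe sets kept apart (162) and only the 4 arrays compared (80). With a replicate block it was 114, of which 96 were among the 112. The labels do not pair the arrays, whose same-numbered deviations correlated at 0.127 between the siRNAs and at -0.176 and -0.175 with mock. Leaving out 1 array gave 0 to 78 calls. The lone array left in a group was then assumed to vary like the others. The ITGA3 difference ran from 2.07 to 3.14 and missed the threshold without MT1-MMP array 1 (2.67) or 2 (2.53), and that of MMP14 ran from -1.21 to -0.38 and was never called. Among the 37 called named genes, the other alternatives kept 367 calls and lost 63, and leaving out an array kept 74 and lost 143. No called difference reversed. The cause of these changes was not tested.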
